A study of Mus musculus with 8 samples.

Results

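The genes described here encode the subunits, activators, inhibitor and assembly factors of the proteasome, and their expression was compared between wild type and transgenic mouse ventral prostate. They were chosen by symbol, as every gene whose name starts with Psma, Psmb, Psmc, Psmd, Psme, Psmf or Psmg in the annotation of the array. Each gene was represented by the probe set that names this gene alone and has the highest mean over the 8 arrays. This gave 48 genes of the 12393 that the arrays measured, and no measured difference entered the choice. Of the 48, 46 belong to the proteasome or its assembly, and the other two carry such a name without being subunits: Psmc3ip, a meiotic recombination factor, and Psme3ip1, a nuclear protein that binds PA28 gamma.

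The proteasome is the main protease of the cytosol and nucleus and degrades proteins tagged with ubiquitin. Its core particle is a barrel of outer alpha rings and inner beta rings, in which Psmb5, Psmb6 and Psmb7 carry the active sites. A regulatory particle with an ATPase ring (Psmc genes) and non-ATPase subunits (Psmd genes) binds ubiquitinated substrates, unfolds them and feeds them into the barrel. In cells exposed to interferon gamma, and constitutively in many immune cells, the active subunits are replaced by Psmb8, Psmb9 and Psmb10 to give the immunoproteasome, which favours peptides that fit MHC class I molecules. The PA28 activators cap the barrel without needing ATP or ubiquitin: PA28 alpha (Psme1) and PA28 beta (Psme2) are interferon-inducible and cytosolic, PA28 gamma (Psme3) is nuclear, and PA200 (Psme4) is a large nuclear activator.

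The series holds 4 wild type and 4 transgenic samples of ventral prostate from FVB mice aged 20 weeks. The wild type samples are described as normal and the transgenic samples as mouse prostatic intraepithelial neoplasia (mPIN), a lesion that precedes invasive cancer. The transgene overexpresses p110 beta, which is a catalytic subunit of PI3-kinase, as an active allele, and the design contrasts normal prostate with the cancer that this induces. The promoter that drives the transgene is not given in the sources used here, and its own level was not analysed here. Whether the arrays stand for separate animals is not stated in the labels, and the p-values below therefore reflect only the spread between the samples, part of which may be technical. Values are log2 RMA signals from 1 Affymetrix array per sample. Array medians lay between 5.40 and 5.51, and the number of arrays limits the precision. In whole tissue, fewer cells of a type and less RNA per cell cannot be told apart.

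The labelled tissue could be checked against marker genes. All 8 measured markers of prostate luminal epithelium lay above the median of every array, among them Foxa1 and Hoxb13, and their mean level was 10.56 to 10.80 in the wild type and 11.14 to 11.19 in the transgenic arrays. Of these 8, 4 were higher in transgenic prostate, led by Cd24a (log2 difference 1.18) and Cdh1 (0.82), and the list's median was 0.44. Of all genes, 5.99% were called higher and 4.98% lower. Of 6 fibroblast markers 2 fell, and the list's mean level was 7.20 to 8.38 in wild type against 6.97 to 7.16, with a median difference of -0.66. Of 4 basal markers 3 fell, with a median of -0.96. None of 6 smooth muscle or 5 endothelial markers passed, with 2 and 0 of them at an unadjusted p under 0.05 and medians of -0.42 and -0.11. Both group means lay below every array median for 1 fibroblast, 2 basal and 4 endothelial markers. The part of this shift in cell type markers in the differences below was not tested.

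Promoters of the genes on which the comparison turns are shown because Psme1, Psmb8 and Psmb9 are known interferon targets, while Psme3 is not induced with them. Each sequence covers 100 bases before the annotated start and 30 from it, on the gene's own strand, 5′ to 3′, from RefSeq on assembly GRCm38.p6. Capitals mark a match to one of the motifs searched in the window of 250 bases before and 50 from the start. The promoter of Psmb10, also a catalytic subunit of the immunoproteasome, held no match to these motifs and is not printed. Psme1 lies at chr14:55578394-55578523 (+), Psme3 at chr11:101316113-101316242 (+), Psmb8 at chr17:34198095-34198224 (+) and Psmb9 at chr17:34187301-34187430 (-).
Psme1: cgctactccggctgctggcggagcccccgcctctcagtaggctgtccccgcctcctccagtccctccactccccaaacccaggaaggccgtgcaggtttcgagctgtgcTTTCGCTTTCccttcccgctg
Psme3: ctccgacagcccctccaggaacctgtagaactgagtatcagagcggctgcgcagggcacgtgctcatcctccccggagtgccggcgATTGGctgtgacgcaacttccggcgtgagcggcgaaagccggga
Psmb8: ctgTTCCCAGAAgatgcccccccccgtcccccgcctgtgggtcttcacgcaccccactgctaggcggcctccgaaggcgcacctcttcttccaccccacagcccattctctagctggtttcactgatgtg
Psmb9: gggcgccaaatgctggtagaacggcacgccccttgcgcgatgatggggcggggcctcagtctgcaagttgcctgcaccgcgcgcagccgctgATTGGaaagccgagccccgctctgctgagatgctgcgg

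In the Psme1 window the capitals are TTTCGCTTTC, a match on the reverse strand to GAAANNGAAA, the letters used here for the interferon-stimulated response element. A promoter was found for 40 of the 48 genes, and all counts here cover both strands. The letters GAAANNGAAA occurred in 5 of the 40 genes (Psmb3, Psmd4, Psmd9, Psme1 and Psmg4), or 12.5%, and in 3.99% of the 27025 genes with a promoter in the table. In Psmb8 the capitals match TTCNNNGAA, the letters used for a gamma-activated site, which occurred in 3 of the 40 genes (7.5%) and in 9.55% of all genes. In Psme3 and Psmb9 the capitals are ATTGG, a match on the reverse strand to CCAAT, found in 15 of the 40 genes (37.5%) and in 41.1% of all genes. A further motif, TGACNNNGC for the antioxidant response element that Nrf1 and Nrf2 bind, occurred in 6 of the 40 genes (15%), Psmb5, Psmb6, Psmc6, Psmd12, Psmd9 and Psme4, and in 14.0% of all genes. Matches of different motifs did not overlap in any of these genes, and a match is a description of these windows only. On chromosome 17, Psmb8 and Psmb9 lie among Tap1 and Tap2, the subunits of the peptide transporter of antigen presentation.

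Few proteasome genes were called different between the groups, and those called were activators. Psme1 was higher in transgenic prostate and Psme3 was lower, while the other 46 genes did not pass the threshold of 0.05 on the adjusted p of limma, a linear model fitted to all probe sets. The count of 2 in 48 is 4.17%, beside 11.0% of all genes, of which 5.99% were called higher and 4.98% lower. The groups did not overlap for 3 of the 48 genes, against 16.3% of all genes. The median log2 difference, transgenic minus wild type throughout, was 0.02 over the 48 genes and -0.04 over all genes. Positive differences were found for 30 genes and negative ones for 18. Of all 12393 genes, 5158 had positive differences and 7235 negative ones. After a further cyclic loess or quantile normalization the median of the 48 genes was 0.0001 or -0.03, beside -0.01 or -0.03 over all genes. The 48 genes also moved together between arrays, as described below, so their signs are not separate observations.

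The intervals bound how large an undetected change could be. Standard errors ran from 0.087 to 0.30 with a median of 0.16, and the 95% confidence interval of every one of the 48 genes lay within 1 log2 unit of 0. For 24 genes it lay within 0.5. Of all 12393 genes, 11640 had an interval within 1 and 8001 within 0.5, with a median standard error of 0.12. By that median the 48 genes were measured less precisely, which limits the comparison of their share of calls with that of all genes. Among the 48 genes other than Psme1 and Psme3, the differences ran from -0.39 for Psmb2 to 0.31 for Psme4, with intervals reaching from -0.82 to 0.90. The 37 further probe sets that name 1 of these genes gave no call in limma, with 2 of them at an unadjusted p under 0.05 and a smallest adjusted p of 0.0889.

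**Figure D1:**
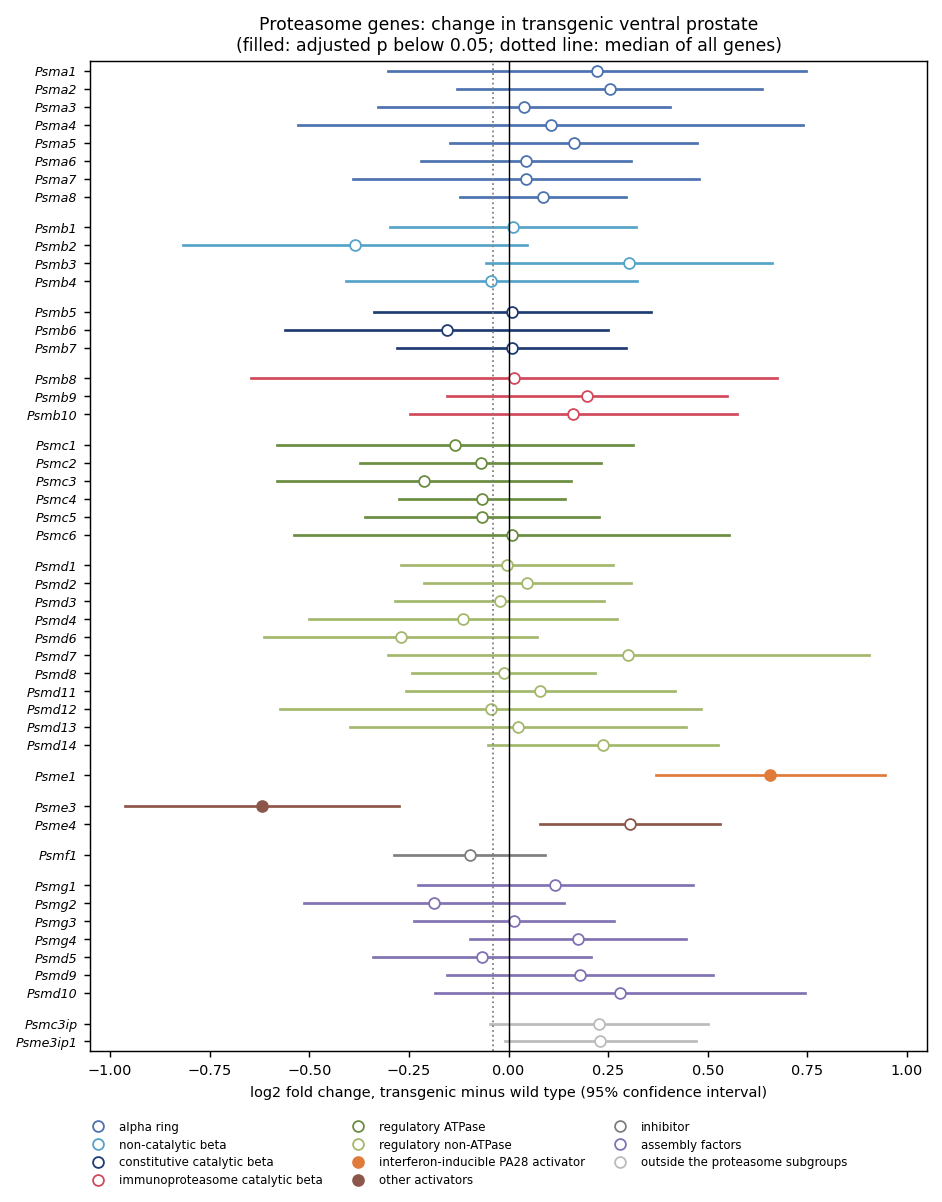
The log2 difference between transgenic and wild type prostate (x axis) is drawn for each of the 48 genes with its 95% confidence interval, coloured by role in the proteasome; filled points passed the adjusted p of limma. Psme1 at 0.66 and Psme3 at -0.62 stand apart, the alpha ring lies to the right of 0 with intervals that all cross it, and the ATPases lie near or to the left of it.

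Psme1, the alpha subunit of the interferon-inducible PA28 activator, had log2 values of 8.25, 8.36, 8.001 and 7.84 in wild type arrays 1 to 4. In the transgenic arrays it measured 8.57, 8.88, 8.89 and 8.74. Every transgenic array lay above every wild type array. The means were 8.11 ± 0.24 (SD, n = 4) and 8.77 ± 0.15 (SD, n = 4), a log2 difference of 0.66 ± 0.13 (SE; 95% interval 0.37 to 0.95), or 1.58-fold, with a limma adjusted p of 0.00821. No other probe set names this gene.

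Its partner Psme2 has no probe set of its own, because the only one that names it also names Psme2b, a near-identical copy, so the signal of the pair cannot be divided and it is not counted among the 48 genes. That probe set measured 8.40, 8.58, 8.38 and 8.25 in wild type and 8.63, 9.17, 9.22 and 8.85 in transgenic arrays. The groups did not overlap here either, and transgenic array 1 was the lowest of its group for both PA28 probe sets. The means were 8.40 ± 0.14 (SD, n = 4) and 8.97 ± 0.28 (SD, n = 4). The log2 difference was 0.57 ± 0.14 (SE) with a limma adjusted p of 0.0248. The call was lost on leaving out either of wild type arrays 3 and 4 or of transgenic arrays 2 and 3, with a highest adjusted p of 0.0882 and differences between 0.48 and 0.68 over all alternatives.

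Psme3, the subunit of the nuclear activator PA28 gamma, moved the other way. Its values were 7.33, 6.78, 6.92 and 6.97 in wild type and 6.66, 6.03, 6.29 and 6.55 in transgenic arrays. The highest transgenic value lay below the lowest wild type value. The means were 7.001 ± 0.23 (SD, n = 4) and 6.38 ± 0.28 (SD, n = 4), a log2 difference of -0.62 ± 0.16 (SE; interval -0.96 to -0.27), 1.54-fold higher in wild type, with a limma adjusted p of 0.0288.

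This call for Psme3 rests on 1 of its 3 probe sets and on few arrays. The others gave log2 differences of 0.04 and -0.16, with limma adjusted p of 0.921 and 0.758, and the mean of all 3 gave -0.25 (adjusted p 0.132). The probe set at -0.16 had both group means, 4.19 and 4.03, below every array median, so it is a weak measure of the gene. The adjusted p rose to 0.0523, 0.0622 and 0.0506 without wild type array 1, 3 or 4, and to 0.0887 and 0.0871 without transgenic array 2 or 3.

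Psme4, named here after its values were seen, encodes PA200, an activator of nuclear proteasomes with a role in histone degradation. It measured 9.31, 9.13, 8.97 and 9.07 in wild type and 9.55, 9.38, 9.34 and 9.43 in transgenic arrays, without overlap. The log2 difference was 0.31 ± 0.10 (SE; interval 0.08 to 0.53), with an unadjusted p of 0.0123 and a limma adjusted p of 0.0943, which misses the threshold. Its other probe sets gave 0.37 and 0.33, with adjusted p of 0.125 and 0.0889. It passed without wild type array 1 (adjusted p 0.0368), with array weights (0.0286) and as the mean of its probe sets (0.0416).

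**Figure D2:**
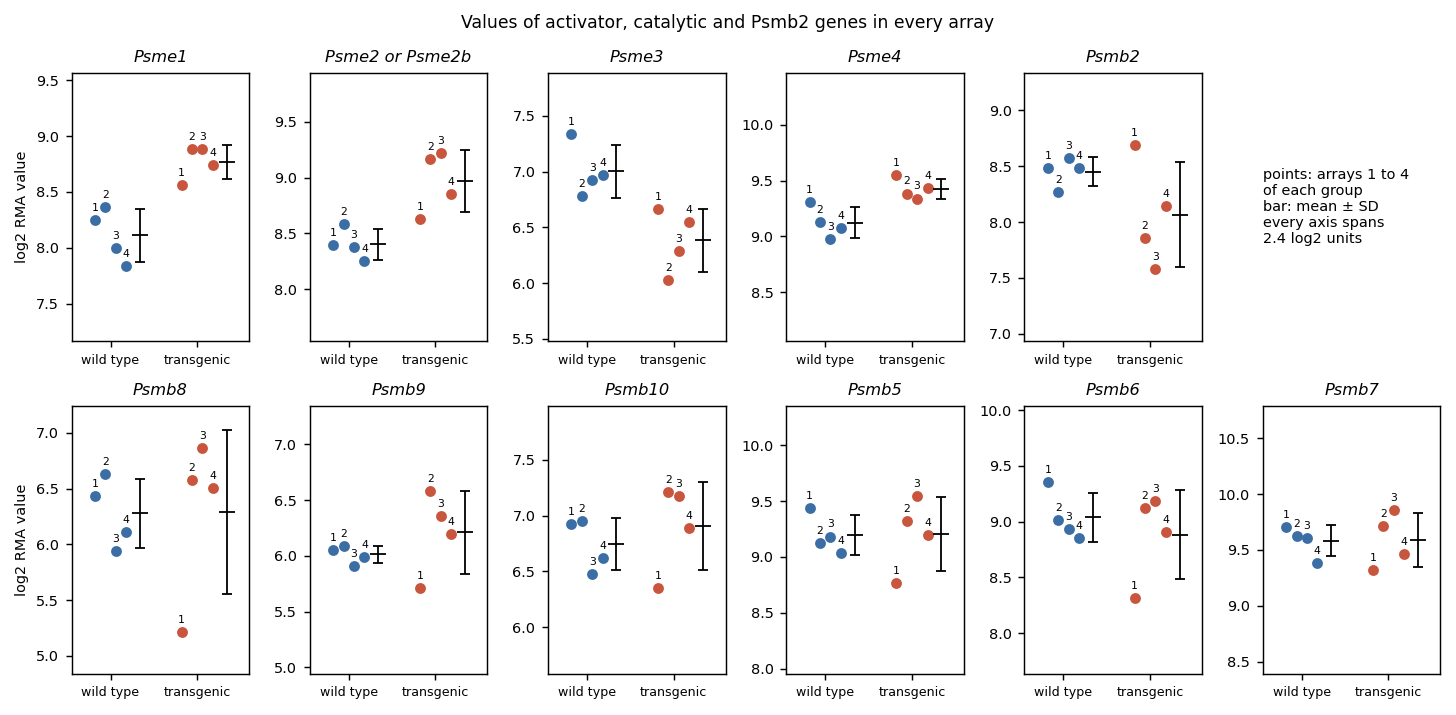
Log2 RMA values (y axis, the same span in every panel) are plotted for activator genes, the catalytic subunits and Psmb2 in each of the 4 wild type (blue) and 4 transgenic (red) arrays, with array numbers beside the points and bars for mean ± SD. Psme1, the probe set of Psme2 or Psme2b, Psme3 and Psme4 show no overlap between groups, and transgenic array 1 is the lowest point for the 6 catalytic subunits.

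The contrast of constitutive with immunoproteasome subunits showed no call among the catalytic genes on either side. Of the 4 immunoproteasome genes with a probe set of their own, 1 passed, and that 1 was Psme1. Of all genes, 11.0% were called and 5.99% were called higher. The probe set of Psme2 or Psme2b, outside this count, also passed, at 0.57 (limma adjusted p 0.0248). The 3 catalytic subunits that the immunoproteasome substitutes did not pass, nor did the 3 that they replace, and their limma adjusted p ran from 0.565 to 0.990.

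Psmb8, the chymotrypsin-like subunit of the immunoproteasome, measured 6.43, 6.63, 5.94 and 6.11 in wild type and 5.22, 6.58, 6.86 and 6.51 in transgenic arrays. Transgenic array 1 held the lowest of the 8 values and transgenic array 3 the highest. The log2 difference was 0.01 with a wide interval of -0.65 to 0.67 (limma adjusted p 0.990). Its constitutive counterpart Psmb5 measured 9.44, 9.13, 9.18 and 9.03 in wild type and 8.76, 9.32, 9.54 and 9.20 in transgenic arrays. Here too transgenic array 1 was the lowest and array 3 the highest, and the difference was 0.01 (interval -0.34 to 0.36).

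Psmb9, which takes the place of the caspase-like subunit, measured 6.06, 6.09, 5.91 and 5.99 in wild type and 5.71, 6.58, 6.36 and 6.19 in transgenic arrays. Transgenic arrays 2, 3 and 4 lay above all wild type arrays and transgenic array 1 below them. The log2 difference was 0.20 (interval -0.15 to 0.55, limma adjusted p 0.565). Psmb6, the caspase-like subunit itself, measured 9.36, 9.01, 8.93 and 8.85 in wild type and 8.32, 9.13, 9.18 and 8.91 in transgenic arrays. Its groups overlapped, and the difference was -0.15 (interval -0.56 to 0.25).

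Psmb10, the substitute for the trypsin-like subunit, measured 6.93, 6.96, 6.48 and 6.62 in wild type and 6.35, 7.21, 7.17 and 6.89 in transgenic arrays. The log2 difference was 0.16 (interval -0.25 to 0.57, limma adjusted p 0.710). Psmb7, the trypsin-like subunit, measured 9.71, 9.63, 9.61 and 9.38 in wild type and 9.32, 9.71, 9.86 and 9.47 in transgenic arrays. Its difference was 0.01 (interval -0.28 to 0.30), and for both genes transgenic array 1 was again the lowest of the 8.

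The log2 value of each immunoproteasome subunit was also set against that of its constitutive counterpart on the same array, which removes a shift that both share. Levels of different probe sets cannot be compared, so only the change of this difference between groups was read, with no test. It changed by 0.00 for Psmb8 minus Psmb5 and by 0.15 for Psmb10 minus Psmb7. For Psmb9 minus Psmb6 it changed by 0.35, from -3.30 to -2.86 in wild type to -2.82 to -2.55 in transgenic arrays, and the groups did not overlap. The mean of the 3 differences changed by 0.17, from -2.93 ± 0.19 to -2.76 ± 0.20 (SD, n = 4 each), which is less than either SD.

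Transgenic array 1 weighed on this contrast. Without it the log2 differences of Psmb8, Psmb9 and Psmb10 were 0.37, 0.36 and 0.35, with limma adjusted p of 0.233, 0.0814 and 0.191, and those of Psmb5, Psmb6 and Psmb7 were 0.16, 0.03 and 0.10. None of the 6 passed without that array. Leaving out the lowest transgenic value of a gene raises its difference by construction. Without transgenic array 3 instead, the differences of Psmb8, Psmb9 and Psmb10 were -0.18, 0.15 and 0.07. Those of Psmb5, Psmb6 and Psmb7 were then -0.10, -0.26 and -0.08. Over all alternatives Psmb8 ranged from -0.18 to 0.37, Psmb9 from 0.07 to 0.36 and Psmb10 from 0.06 to 0.35. Psmb11, the thymus subunit, was not analysed here.

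Among the rest of the core particle, no gene passed. The 8 alpha ring subunits, which form the gate of the barrel, all had positive log2 differences, from 0.04 for Psma3 to 0.25 for Psma2, with a median of 0.10. Psma2 had the smallest p of the ring: 9.84, 9.68, 9.35 and 9.29 in wild type and 9.35, 10.05, 10.05 and 9.73 in transgenic arrays, with overlapping groups and a limma adjusted p of 0.479. Psma1 followed at 0.22 and Psma5 at 0.16. Psma8, a testis-specific alpha subunit, was the only one of the 48 genes with both group means, 3.34 and 3.43, under all array medians.

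The non-catalytic beta subunits differed among themselves. Psmb3 had a log2 difference of 0.30 ± 0.16 (SE, limma adjusted p 0.337), Psmb1 of 0.01 and Psmb4 of -0.04. Psmb2 was at -0.39 ± 0.20 (SE, limma adjusted p 0.305). It measured 8.48, 8.27, 8.57 and 8.49 in wild type and 8.69, 7.86, 7.58 and 8.14 in transgenic arrays, so 3 transgenic values lay below all wild type values and transgenic array 1 above them. Without transgenic array 1 the difference of Psmb2 was -0.59 and passed with an adjusted p of 0.0249. Over all 15 constitutive core genes the median was 0.04, 12 were positive and 3 negative, and the intervals reached from -0.82 to 0.75. The 15 and the 12 positive genes include the testis-specific Psma8, at 0.09 with both means below every array median.

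None of the 17 subunits of the regulatory particle passed, and their median log2 difference was -0.02, with 6 positive and 11 negative. The 6 ATPases ran from -0.21 for Psmc3 to 0.01 for Psmc6. Psmc3, the smallest p among them, measured 9.19, 8.98, 8.70 and 8.74 in wild type and 8.28, 8.94, 8.98 and 8.57 in transgenic arrays, which overlap, with a limma adjusted p of 0.554. The 11 non-ATPases ran from -0.27 for Psmd6 to 0.30 for Psmd7, the second with an interval of -0.30 to 0.90. Psmd14, the deubiquitinase that removes the ubiquitin chain as the substrate enters, had the smallest p of this group: 9.16, 8.84, 8.77 and 8.58 in wild type and 9.003, 9.21, 9.19 and 8.90 in transgenic arrays. Its difference was 0.24 (limma adjusted p 0.355). The scaffold subunits Psmd1 and Psmd2 were at -0.00 and 0.05, and the ubiquitin receptor Psmd4 at -0.11.

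Assembly and inhibition likewise gave no call. The chaperones of alpha ring assembly had log2 differences of 0.12 (Psmg1), -0.19 (Psmg2), 0.01 (Psmg3) and 0.18 (Psmg4, limma adjusted p 0.493, the smallest p of the 7 assembly factors). The chaperones of the ATPase ring were at -0.07 (Psmd5), 0.18 (Psmd9) and 0.28 (Psmd10, also known as gankyrin). Psmf1, the inhibitor PI31, varied little between arrays, at 6.77 ± 0.06 and 6.67 ± 0.04 (SD, n = 4 each), a difference of -0.10 (limma adjusted p 0.604). Psmc3ip and Psme3ip1, which are not proteasome subunits, were both at 0.23, with adjusted p of 0.348 and 0.258.

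The proteasome genes rose and fell together from array to array within each group. Relative to each gene's own mean over the 8 arrays, the median of the 48 genes was 0.21, 0.05, -0.14 and -0.20 in wild type arrays 1 to 4 and -0.22, 0.17, 0.23 and -0.04 in transgenic arrays 1 to 4. The same median over the 6951 genes whose mean lay above every array median stayed between -0.06 and 0.07. Quantile normalization tends to hold the median of so many genes close to 0, so the flatness of this median cannot show that the pattern is particular to proteasome genes. In wild type arrays 1 to 4 that median also fell in order, at 0.07, 0.01, -0.01 and -0.06. The median SD within a group was 0.22 in wild type and 0.26 in transgenic for the 48 genes, against 0.18 and 0.14 for all genes.

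Counted by gene, and for arrays picked out after this pattern was seen, wild type array 1 was the highest of its group for 35 of 48 proteasome genes (72.9%), against 47.0% of the 6951 brighter genes. Transgenic array 1 was the lowest of its group for 33 of 48 (68.8%), against 33.6%. Transgenic array 2 or 3 was the highest for 40 of 48 (83.3%), against 49.1%. Over all genes these shares were 31.2%, 26.7% and 41.0%, so each was larger among the brighter genes. The 6951 genes were not matched to the 48 in brightness, and the part of brightness in these shares was not tested. Core and regulatory particle shared the pattern: transgenic array 1 was the lowest for 10 of 15 constitutive core genes and 13 of 17 regulatory genes. Transgenic array 1 was instead the highest of its group for 6 of the 48 genes, namely Psma8, Psmb2, Psmc4, Psmd8 and the activators Psme3 and Psme4.

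Some properties of the arrays differed alongside. The SD over an array's values was 2.10, 2.03, 1.98 and 1.92 in wild type arrays 1 to 4, the same order as the proteasome medians, and 2.02, 2.07, 2.06 and 2.01 in transgenic arrays. The difference between 3′ and 5′ control probe sets, a measure of RNA integrity and labelling, was 1.34 to 1.56 in wild type and 0.97 to 1.40 in transgenic arrays, with 1.06 in transgenic array 1. Their part in the pattern was not tested. Without transgenic array 1 the median difference of the 48 genes was 0.16, and the calls were Psme1 higher and Psmb2 and Psme3 lower. That array was picked out after its low values were seen, and without transgenic array 3 the median was -0.04.

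**Figure D3:**
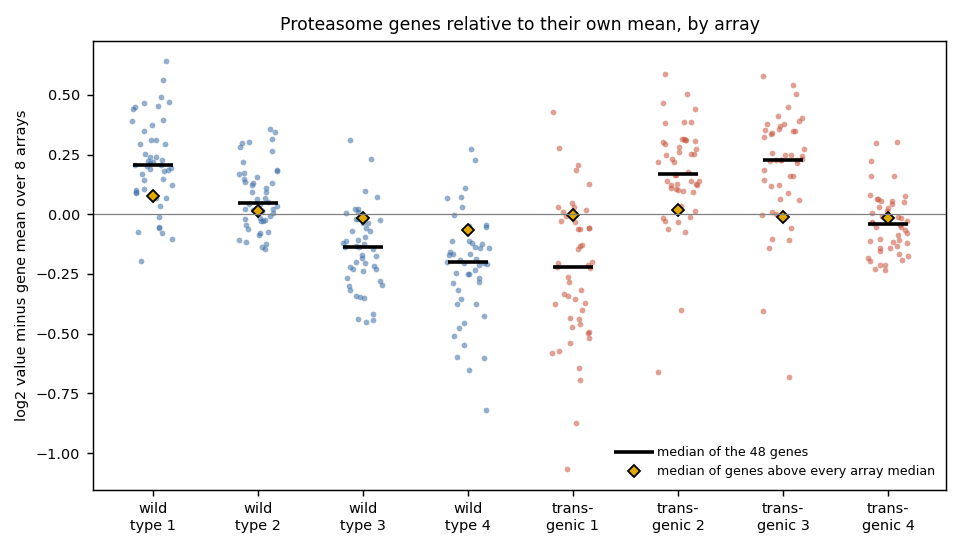
Each point is 1 of the 48 proteasome genes on 1 array, as its log2 value minus the gene's mean over 8 arrays (y axis); black lines are the median of the 48 genes and diamonds the median of the 6951 genes above every array median. The black lines run from 0.21 in wild type array 1 to -0.20 in wild type array 4. They are lowest in transgenic array 1, at -0.22. The diamonds stay between -0.06 and 0.07. Normalization tends to hold the median of so many genes close to 0, and its part in this flatness was not tested.

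Genes that work with the proteasome were counted in lists, to be read beside the shares of all genes, 5.99% called higher and 4.98% called lower, and beside the median of all genes of -0.04. Of 8 measured proteasome-associated genes without the Psm prefix, none passed, with 2 at an unadjusted p under 0.05, and the median log2 difference was 0.05. The smallest p was that of Txnl1, a thioredoxin-like protein of the regulatory particle, at -0.36 (limma adjusted p 0.0883). Pomp, the maturation factor of the core particle, was at 0.25 (adjusted p 0.459). Of 8 shuttle receptors and unfoldase genes, which deliver substrates, 2 fell and all 8 differences were negative, with a median of -0.14; of all 12393 genes, 4.98% fell and 7235 had negative differences. Rad23b, a ubiquitin shuttle receptor, fell by 0.59 from 9.07 ± 0.16 to 8.48 ± 0.17 (SD, n = 4 each; limma adjusted p 0.00841). Nploc4, a cofactor of the unfoldase p97, fell by 0.46 with an adjusted p of 0.0448, and that call was lost in 7 of the 8 fits that left out an array, the exception being transgenic array 1.

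Of 7 genes that govern proteasome gene transcription, 1 fell. This was Nfe2l2 (Nrf2), the regulator of the antioxidant response, from 8.32 ± 0.08 to 7.90 ± 0.11 (SD, n = 4 each; limma adjusted p 0.0159), with an adjusted p of 0.0578 without transgenic array 3. Nfe2l1 (Nrf1), which raises proteasome genes when proteasome activity falls, was at -0.09 (adjusted p 0.784). No ubiquitin gene or E1 enzyme of a list of 6 had a probe set of its own, so that list was not analysed here.

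Of 11 genes of MHC class I presentation, which uses the peptides that the immunoproteasome makes, 2 rose and none fell, with a median log2 difference of 0.09. Erap1, the aminopeptidase that trims such peptides, rose by 0.76 from 5.99 ± 0.23 to 6.76 ± 0.24 (SD, n = 4 each; limma adjusted p 0.00658). H2-D1, a class I heavy chain, rose by 0.74 (adjusted p 0.00103), but its signal is uncertain because class I genes are near-identical, and its probe set not marked as shared gave 0.16 (adjusted p 0.475). The peptide transporter genes Tap1 and Tap2, neighbours of Psmb8 and Psmb9, were at -0.12 and 0.34 and did not pass, with adjusted p of 0.596 and 0.152. An unadjusted limma p under 0.05 was found for 7 of the 11 genes, beside 2826 of all 12393 genes. Of the 11 differences 6 were positive and 5 negative, with Canx at -0.39 and Calr at -0.31 among those that did not pass.

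Of 10 genes of interferon gamma signalling, 3 rose and 1 fell, with a median log2 difference of 0.12. Of all genes, 5.99% rose and 4.98% fell. An unadjusted limma p under 0.05 was found for 5 of the 10, beside 2826 of all 12393 genes. The receptor chains moved in opposite directions: Ifngr2 rose by 0.85 (limma adjusted p 0.00154) and Ifngr1 fell by 0.44 (adjusted p 0.0131, and 0.0538 without transgenic array 2). The kinases Jak1 and Jak2 rose by 0.54 and 0.37 (adjusted p 0.0125 and 0.0362), and the call for Jak2 was lost on leaving out any 1 of transgenic arrays 2 to 4 or of wild type arrays 1, 3 and 4. Irf1, the transcription factor through which interferon gamma raises immunoproteasome genes, was at 0.09 (adjusted p 0.688).

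Of 17 interferon-induced genes, 1 rose and 2 fell, with a median of -0.06, and 13 of the 17 lay below the median of every array. Oas1a, an antiviral enzyme, rose by 0.61. Ifit1, an RNA-binding antiviral protein, fell by 0.73, and Cxcl10, a chemokine, fell by 0.37; both lay below every array median, and the call for Cxcl10 was lost without any 1 of wild type arrays 2, 3 and 4 or transgenic arrays 1, 2 and 3.

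Immune cells express the immunoproteasome constitutively, so their markers are given beside Psme1. Of 8 leukocyte markers 1 rose, Cytip, by 0.75 (limma adjusted p 0.0107), and 5 of the 8, Cytip among them, lay below every array median. The differences of 6 of the 8 were negative without passing (Lcp1 at -0.40, adjusted p 0.104), and the list's median was -0.07. Its mean level was 5.07 to 5.49 in wild type and 5.21 to 5.39 in transgenic arrays. Of 12 macrophage and dendritic cell markers 1 rose, Mrc1, the mannose receptor, from 6.44 ± 0.56 to 8.71 ± 0.24 (SD, n = 4 each). Of the 12, 9 had negative differences, none of which passed (Cd74 at -0.47, limma adjusted p 0.0541), with a list median of -0.19. The list's mean level, Mrc1 included, was 5.82 to 6.59 in wild type and 6.20 to 6.33 in transgenic arrays. No T and NK cell marker of 8 passed in limma, with 1 at an unadjusted p under 0.05, and 7 of them lay below every array median; the list's median was -0.08. Of 5 B and plasma cell markers 1 rose by 1.04, Sdc1, a syndecan that epithelial cells also express, while the other 4 had negative differences that did not pass, and the list's median was -0.08. The part of immune cells in the difference of Psme1 was not tested.

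**Figure D4:**
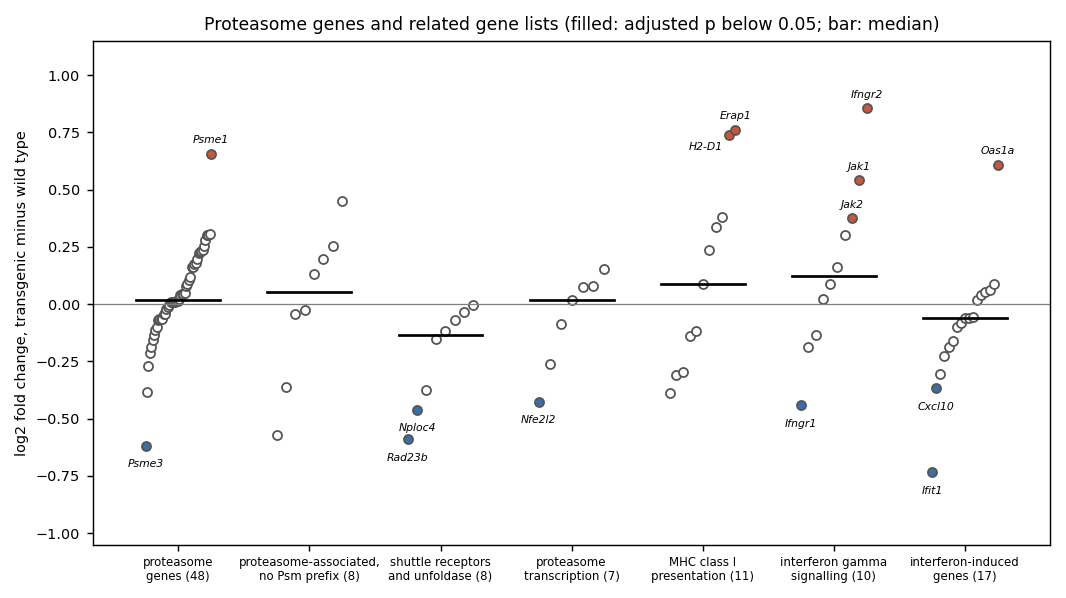
Log2 differences between transgenic and wild type prostate (y axis) are plotted for the 48 proteasome genes and for 6 related gene lists, with the number of genes measured in parentheses; bars are list medians and filled points passed the adjusted p of limma. The list medians lie between -0.14 and 0.12, and the named points are the calls.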

How the data were processed

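The authors deposited log2 signals made by RMA, which the submitters' processing notes name without a version. RMA includes background correction, quantile normalization and a summary per probe set, which removes a change common to all transcripts. Of 22690 probe sets, 64 controls were left out. Of the 22626 tested, 20380 had 1 symbol in the platform annotation, 691 had several and 1555 had none. Transgenic and wild type were compared by lmFit and eBayes of limma 3.58.1 (R 4.3.3), without covariates, with Benjamini-Hochberg adjustment over all 22626 and a threshold of 0.05. The fit was tested on simulated data. Promoters and gene order came from RefSeq tables of GRCm38.p6.

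The genes, lists and tests were chosen with earlier results of these data known. Named in full were the catalytic and PA28 genes, every proteasome gene past the threshold and, in a role without one, the gene of smallest p; of each related list up to 4 genes past the threshold, of each cell type list up to 2. Others were named after their values were seen. Lists are described by counts and medians.

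Alternatives were quantile and cyclic loess normalization, omission of the dimmest 40% of probe sets, a robust prior with a mean-variance trend, weights per array, averaging a gene's probe sets, unmarked probe sets only, the replicate number as a block, and leaving out each array.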

Additional observations from a re-analysis of the deposited data

Results flagged for a closer look

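Wild type array 2 stood apart for Psmc4, an ATPase of the regulatory particle, at a log2 value of 7.59, while the other wild type arrays lay between 7.79 and 7.83. Its gap to the nearest value, divided by the range of the group, was 0.858, above Dixon's 95% critical value for 4 samples. It was the only such value in 96 groups checked (48 genes in 2 groups), where chance flags about 1 in 20. Psmc4 did not pass in limma (adjusted p 0.770).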

How the results depend on the processing

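Under 16 alternatives, 253 values were followed for 16 of the 48 genes, among them Psme3ip1, which is not a proteasome subunit. Of these values, 225 kept direction and call, and 6 lost a call, all of Psme3. Another 4 gained one, of Psme4 and Psmb2, and 18 that were never called changed sign. None reversed. Psme1 was called under all 16, at 0.57 to 0.74 (limma adjusted p 0.00150 to 0.0340), and Psme3 ranged from -0.71 to -0.25. The number of proteasome genes called higher was 2 with array weights, 2 with the mean of all probe sets and 1 to 2 when an array was left out. The number called lower was 0 with the mean of all probe sets and 0 to 2 when an array was left out. Of the constitutive core genes, 0 to 1 were called lower when an array was left out. The cause was not tested. Over all genes, array weights gave 1087 higher and 1068 lower calls, beside 742 and 617, and leaving out transgenic array 2 gave 494 and 359. The deviations of same-numbered samples from their group means correlated at -0.31, 0.24, -0.20 and 0.33, and those of differently numbered samples at -0.46 to 0.47. These mixed values do not show that the numbers pair the samples, and they cannot exclude it. With the replicate block, Psme1 had 0.66 (adjusted p 0.0197) and Psme3 -0.62 (0.0105), the only calls among the 48 genes, and 599 genes were higher and 486 lower; of the related genes named, Nploc4 (0.0821), Jak2 (0.0642) and Cxcl10 (0.0645) lost their calls. Psma8 was left out with the dimmest probe sets, and 40 genes had an unmarked probe set. Signal over background limits Psma8.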
